A study of Drosophila melanogaster with 12 samples.

Results

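The genes CG32564, msta, CG1503, CG9672 and CG4198 lie on the X chromosome of Drosophila melanogaster and were selected on their measured read counts, for an unusual difference between females that carried an msl-2 transgene and control females. They are 5 of the 2238 genes in the table of X-linked genes and of 14161 genes in all, and each passed the filter on low counts. The choice left out the roX genes, white and the eggshell genes. Because it rested on MSL2 females against control females, the values of that comparison are given as a description with no test. Other comparisons that use those libraries are described in the same way. The test was made in males, whose libraries the choice did not use, but its spread between replicates was estimated over all 12 libraries.

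The study sequenced RNA of whole adult flies, with 3 biological replicates in each of 4 groups. MSL2 females had the genotype y w; (w+) H83M2-6I/+; +/+, in which H83M2-6I is a P-element carrying msl-2 and a mini-white marker. Control females were y w; +/+; TM3/+, where TM3 is a balancer of chromosome 3. MSL2 males carried H83M2 according to their titles, and the labels do not state their full genotype. Control males were y w; +/+; TM3/+ like the control females. MSL2 females thus differed from control females by the transgene and also by the absence of TM3, and the effects of these cannot be told apart. One insertion line was used, and neither the promoter of the construct, the age of the flies nor the number of flies per library is stated in the labels.

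Production of MSL2, a protein that the male-specific lethal (MSL) complex needs to assemble, is normally blocked in females. In males the complex, with the noncoding RNAs roX1 and roX2, coats the X chromosome and acetylates histone H4, and genes on the single male X are transcribed at a higher rate per copy. Females that make MSL2 assemble the complex on both X chromosomes. The 5 genes are no part of the complex. Of these, msta is now named SmydA-8 and belongs to an arthropod class of proteins with a SET domain, which in other proteins transfers methyl groups, split by a MYND zinc finger. CG9672 has the synonym SPH161 and is a serine protease homologue, a class of secreted proteins with the fold of trypsin, many of which have lost catalytic activity. CG32564, CG1503 and CG4198 are known by their annotation numbers only.

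The libraries held 27729411 to 79622278 counts each, so that 3 counts, taken as the floor of detection, equal 0.0377 to 0.108 CPM (counts per 1000000 counts of the library) and cover counting error only. The label checks followed the labels. The msl-2 gene averaged 526 ± 85.3 CPM in MSL2 females and 17.4 ± 1.92 CPM in control females, and 490 ± 92.8 CPM in MSL2 males and 31.6 ± 0.963 CPM in control males (SD, n = 3 each). The roX1 RNA averaged 119 ± 8.62 CPM in MSL2 females and 4.12 ± 2.68 CPM in control females, and the white gene, which marks the transgene, 23.6 ± 3.46 CPM in MSL2 males and 3.80 ± 0.403 CPM in control males (SD, n = 3 each). CPM values here use library totals scaled by TMM and are not divided by gene length, so they compare libraries and not genes.

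CG32564 was the gene of the set with the highest ratio of MSL2 to control females. It had 29.4, 11.2 and 19.3 CPM in MSL2 females and 4.43, 4.96 and 8.88 CPM in control females. Every MSL2 female library lay above every control female library, although the lowest MSL2 female and the highest control female library were close to each other. In males it had 5.20, 6.86 and 5.66 CPM with the transgene and 3.32, 4.46 and 4.15 CPM without it. These groups did not overlap either, and the MSL2 male libraries fell within the range of the control females. The fitted log2 fold change was 1.71 ± 0.34 (SE, n = 3 each) in MSL2 females over control females, a fold of 3.26. CG32564 was also the most variable of the 5 genes between replicates. Its biological coefficient of variation, the spread between replicates beyond counting error, was 0.286, against a median of 0.108 over the 2075 X-linked genes tested.

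The other gene with higher values in MSL2 females was msta. It had 50.6, 43.2 and 41.4 CPM in MSL2 females and 22.3, 25.0 and 24.1 CPM in control females, a log2 fold change of 0.92 ± 0.08 (SE, n = 3 each). In males it had 26.6, 25.5 and 26.2 CPM with the transgene and 27.6, 27.2 and 27.1 CPM without it. The 3 MSL2 female libraries therefore stood above the 9 others, which together covered 22.3 to 27.6 CPM. Replicates of this gene agreed more closely than those of the median X-linked gene, with a biological coefficient of variation of 0.0817. The files hold 2 transcripts of msta, and the smaller had 46.1% to 49.9% of the count of the larger in MSL2 females, 49.4% to 52.6% in control females, 49.96% to 54.7% in MSL2 males and 49.6% to 55.3% in control males. The difference between MSL2 and control females was thus seen in both transcripts.

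CG1503 and CG4198 were low in females and high in males, and both were lower in MSL2 females than in control females. CG1503 had 0.563, 0.995 and 0.899 CPM in MSL2 females and 2.42, 1.94 and 2.19 CPM in control females. All MSL2 female libraries were below all control female libraries, at a log2 fold change of -1.44 ± 0.18 (SE, n = 3 each). In males the gene had 22.6, 21.8 and 23.9 CPM with the transgene and 24.2, 20.7 and 22.3 CPM without it. The ranges of the male groups overlapped, and control males exceeded control females 10.3-fold. The counts behind the female values were 104 over the MSL2 females and 362 over the control females, so this gene was measured with fewer reads in females than the other members.

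CG4198 had 1.89, 2.81 and 3.30 CPM in MSL2 females and 3.997, 4.08 and 3.92 CPM in control females, which gives a log2 fold change of -0.59 ± 0.16 (SE, n = 3 each). The control female libraries were nearly equal, and the MSL2 female libraries spread below them. Male libraries held 137, 132 and 136 CPM with the transgene and 129, 114 and 121 CPM without it. Here the MSL2 males lay above the control males, opposite in direction to the females. Control males exceeded control females 30.4-fold and MSL2 males exceeded MSL2 females 50.8-fold.

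CG9672, the serine protease homologue, was the only member with its highest level in control females. It had 22.6, 23.9 and 26.4 CPM in MSL2 females and 34.7, 40.9 and 34.4 CPM in control females, at a log2 fold change of -0.59 ± 0.14 (SE, n = 3 each). In males it had 23.4, 16.6 and 23.3 CPM with the transgene and 22.3, 21.2 and 26.2 CPM without it. The MSL2 females overlapped with both male groups, while the control females stood above all 9 other libraries.

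**Figure D1:**
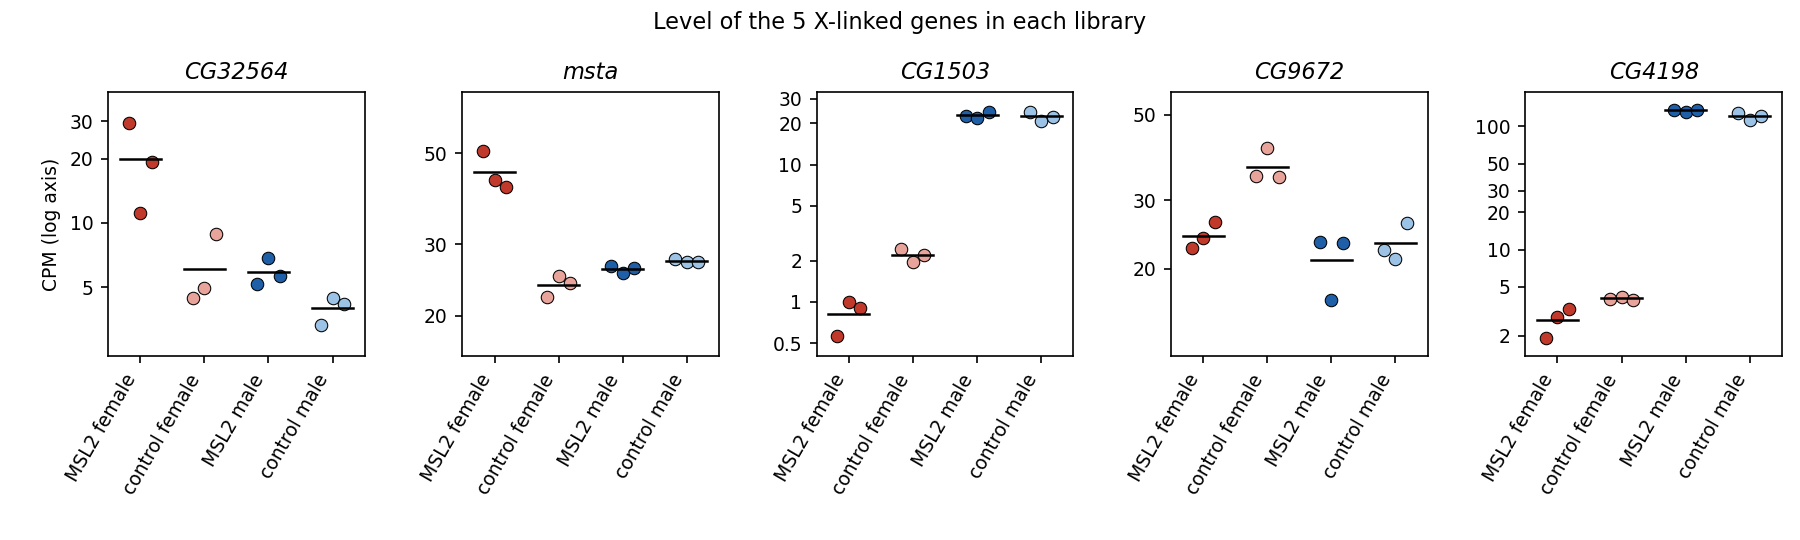
Level of each gene in each of the 12 libraries, as CPM on a log axis, in MSL2 females, control females, MSL2 males and control males (points, replicates 1 to 3 from left to right; lines, group means). MSL2 females stand above all other libraries for msta (41.4 CPM or more), and both female groups lie far below both male groups for CG1503 and CG4198.

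The order of the group means differed from gene to gene. For CG32564 it ran from MSL2 females (19.97 CPM) over control females (6.09 CPM) and MSL2 males (5.91 CPM) to control males (3.98 CPM), and of the neighbours in this order only control females and MSL2 males had overlapping ranges. Control males also overlapped with control females. For msta it ran from MSL2 females (45.0 CPM) over control males (27.3 CPM) and MSL2 males (26.1 CPM) to control females (23.8 CPM), with no overlap between neighbours. CG1503 and CG4198 shared one order, MSL2 males, control males, control females and MSL2 females, in which only the male groups of CG1503 overlapped. CG9672 had control females first, at 36.7 CPM, and then MSL2 females, control males and MSL2 males between 24.3 and 21.1 CPM, all overlapping with their neighbours.

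Against control males, MSL2 females differed by a log2 fold change of 2.34 ± 0.35 for CG32564, 0.72 ± 0.08 for msta, 0.06 ± 0.14 for CG9672, -4.81 ± 0.17 for CG1503 and -5.51 ± 0.17 for CG4198 (SE, n = 3 each). Control males against control females differed by -0.63 ± 0.34, 0.20 ± 0.08, -0.66 ± 0.14, 3.37 ± 0.15 and 4.92 ± 0.16 for these genes in the same order (SE, n = 3 each). These comparisons share control males with each other and MSL2 or control females with the comparison that chose the genes. For CG1503 and CG4198 the MSL2 females were farther from the control males than the control females were. For CG9672 the MSL2 females were at the level of the control males, and for CG32564 and msta they were above both control groups.

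In males, where MSL2 is already made, none of the 5 genes passed the test between MSL2 and control flies. With edgeR's quasi-likelihood test and Benjamini-Hochberg adjustment over 13060 genes, 0 of 5 were called, 0 had an unadjusted p under 0.05 (the lowest was 0.125), and DESeq2 also called 0. Over all genes 0.812% were called in this comparison, and of X-linked genes 0.0964%, so a count of 0 among 5 lies at the background. The 2 X-linked genes called were w, at a log2 fold change of 2.63, and mRpL49, a mitochondrial ribosomal protein gene, at -0.32. CG32564 had the largest fitted difference of the set, with a log2 fold change of 0.57 ± 0.34 (SE, n = 3 each), a 95% confidence interval from -0.19 to 1.33 and an adjusted p of 0.89 in edgeR. The interval covers folds from 0.879 to 2.52. Its width draws on the spread in all 12 libraries. For CG32564 the SD was 39.8% of the mean in control females and 45.7% in MSL2 females, but 14.9% in control males and 14.5% in MSL2 males. In a fit of only the 6 male libraries its value was 0.56 ± 0.16 (adjusted p = 0.132, edgeR). There 2 of the 5 genes had an unadjusted p under 0.05 and 0 were called.

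For the remaining genes the male intervals were narrower. The log2 fold change of MSL2 males over control males was -0.07 ± 0.08 for msta, with a 95% confidence interval from -0.24 to 0.11. That of CG1503 was 0.02 ± 0.13 with an interval from -0.27 to 0.32, that of CG9672 was -0.14 ± 0.14 with an interval from -0.45 to 0.17, and that of CG4198 was 0.15 ± 0.13 with an interval from -0.13 to 0.44 (SE, n = 3 each). Each of these 4 genes had an adjusted p of 0.999 in edgeR. Male libraries did not overlap between the groups for 3 of the 5 genes, higher in MSL2 males for CG32564 and CG4198 and lower for msta, where 23.2% of all genes and 17.6% of X-linked genes did not overlap (6.36% of X-linked genes higher and 11.3% lower in MSL2 males). The median log2 fold change of X-linked genes in males was -0.02.

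**Figure D2:**
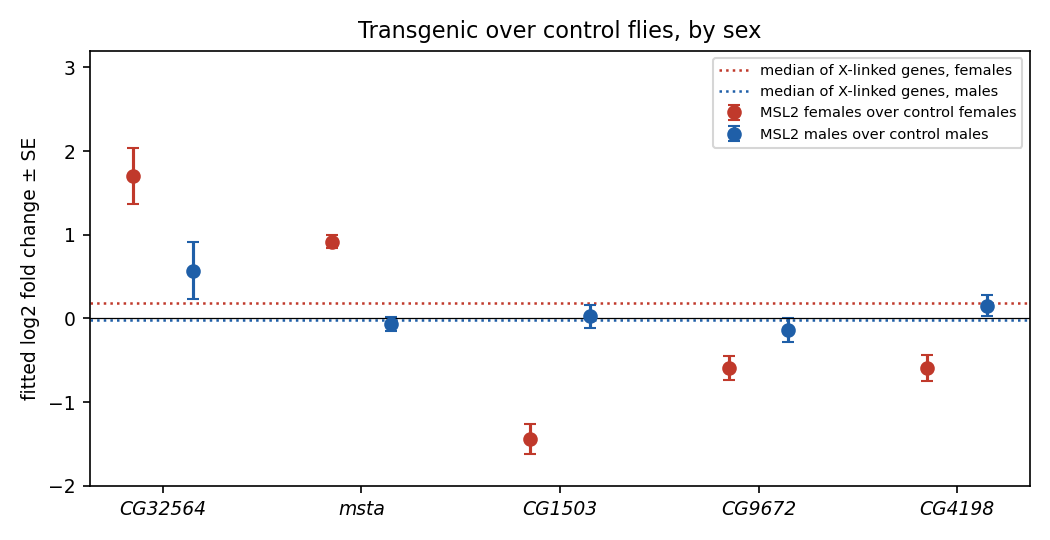
Fitted log2 fold change of each gene in MSL2 females over control females and in MSL2 males over control males, with SE as bars (n = 3 each). Female values run from -1.44 to 1.71 around an X-linked median of 0.19 (upper dotted line), and male values from -0.14 to 0.57 around a median of -0.02 (lower dotted line).

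In females the 5 genes were all called and had no overlap between the groups, which follows from their choice, where 22.7% of X-linked genes were called (22.0% higher and 0.723% lower) and 36.8% did not overlap (34.3% higher and 2.55% lower). These calls describe the choice and are no test. In a fit of only the 6 female libraries msta alone of the 5 was called, where 3.8% of X-linked genes were called higher and 0 lower. Without control female 2 there was 1 called higher and 1 lower, where 12.8% of X-linked genes were called higher and 0.096% lower. The median log2 fold change of the 2075 X-linked genes tested was 0.19, so that relative to this median CG32564 stood at 1.52, msta at 0.73, CG1503 at -1.63, and CG9672 and CG4198 both at -0.78. The genes were not the most extreme of the X by size alone. In the order of log2 fold change CG32564 had rank 16 from the top and msta rank 81, and CG1503, CG9672 and CG4198 had ranks 28, 71 and 72 from the bottom. Among the 15 X-linked genes called lower, CG1503 had rank 4, CG9672 rank 10 and CG4198 rank 11.

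The choice had no numerical threshold, and genes with nearly the same fold stood next to each member. Beside CG32564 these were CG15460 at 1.76 and CG2709 at 1.61 on the log2 scale, with 38 and 125 counts over the MSL2 females where CG32564 had 2872. Next to msta were iav, an ion channel subunit of hearing neurons, at 0.92 and CG2157 at 0.92. CG1503 stood between CG12716 at -1.43 and CG32523 at -1.48. CG9672 and CG4198 were neighbours, with CG6481 at -0.60 below them and a small nucleolar RNA at -0.59 above them. Of these genes that are not members, only CG32523 had more counts over the MSL2 females than the member beside it.

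**Figure D3:**
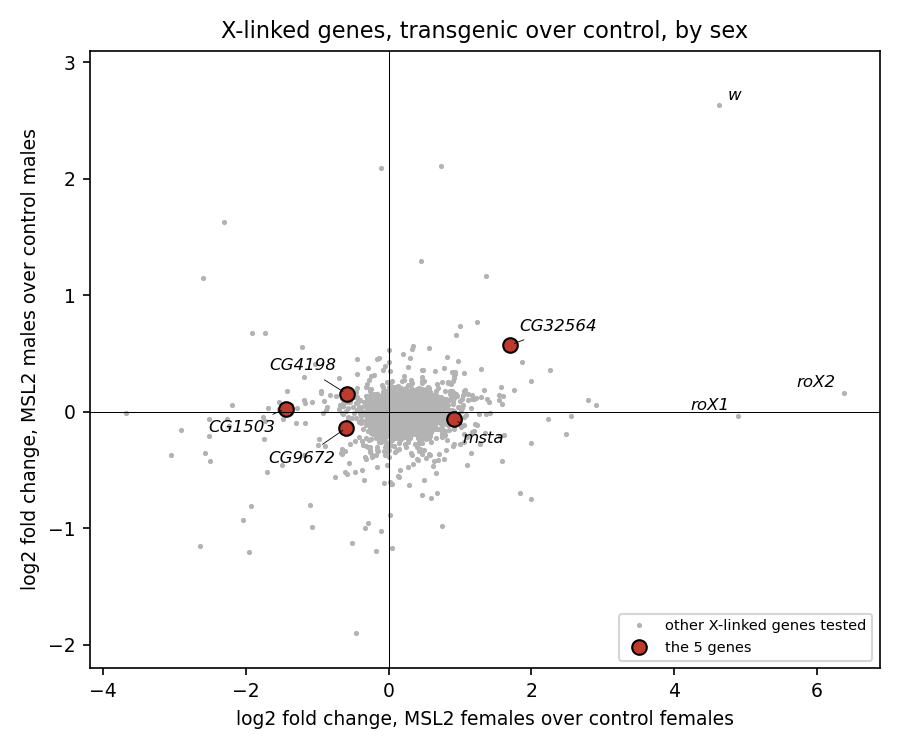
Log2 fold change of MSL2 males over control males (vertical axis) against that of MSL2 females over control females (horizontal axis) for the 2075 X-linked genes tested, with the 5 genes in red and roX1, roX2 and w named. Of the 5 genes CG32564 has the male value farthest from 0 (0.57), and other grey points lie farther out in females.

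In the annotated gene order the members were spread along the X chromosome and were not direct neighbours. Among 2192 protein-coding X-linked genes, msta had place 231, CG4198 place 465, CG9672 place 1646, CG32564 place 1705 and CG1503 place 2093. The nearest pair, CG9672 and CG32564, had 58 such genes between them. CG32564 is a gene of 1 exon that overlaps no other, and msta overlaps no other gene either. CG1503 lies within stg1, a stargazin-like gene listed in the files as CG11566, on the opposite strand. CG9672 lies in the same way within CG4678. CG4198 shares exon sequence with CG15930 on the opposite strand. Since the labels do not say whether strand was used in counting, reads of CG4198 and CG15930 cannot be told apart over the shared part. CG15930 averaged 0.877 CPM in MSL2 females and 0.562 CPM in control females, and 2.93 CPM in MSL2 males and 3.08 CPM in control males.

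The 5 nearest tested genes on either side of each member made 50 neighbours. In MSL2 females 8 of these were called higher and 1 lower by edgeR, where 22.0% and 0.723% of X-linked genes were. In a fit of only the 6 female libraries 0 of 45 neighbours tested were called, where 3.8% of X-linked genes were called higher and 0 lower, and 12 of the 45 had an unadjusted p under 0.05. The calls of single neighbours that follow are those of the fit over all 12 libraries. The median of the neighbours' log2 fold changes was 0.09, against 0.19 for all X-linked genes tested. In MSL2 males 0 of the 50 were called by edgeR and 0 by DESeq2, and 1 had an unadjusted p under 0.05.

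The nearest tested gene on each side of msta was higher in MSL2 females as well. CG18031, now named FarO, had a log2 fold change of 0.63 ± 0.16 (adjusted p = 0.0329, edgeR), and Vinc, the gene of the cell adhesion protein vinculin on the other side, 0.51 ± 0.07 (adjusted p = 0.00213, edgeR). CG14052, beyond Vinc, was below the filter on low counts. CG1503 had neighbours that differed in sign. Its host gene CG11566 was higher, at 0.56 ± 0.16 (adjusted p = 0.0494, edgeR), and unc, which encodes a protein of the base of cilia and flagella, was lower, at -0.64 ± 0.15 (adjusted p = 0.0275, edgeR). CG15446, on the other side, had a log2 fold change of -0.65 ± 0.49 and CG15445 one of 0.36 ± 0.20, and neither passed the test (adjusted p = 0.471 and 0.241, edgeR). CG15446 and unc also resembled CG1503 in being higher in males, with 18.8 and 5.84 CPM in control males against 0.104 and 2.16 CPM in control females. CG15446, at 0.0559 CPM in MSL2 females, was near the floor of detection in both female groups.

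CG4198 sits beside a pair of thioredoxin genes with opposite germline roles. TrxT, the thioredoxin of the testis, had 1.07 CPM in MSL2 females and 0.841 CPM in control females, and dhd, the thioredoxin of the ovary, had 479 CPM in MSL2 females and 887 CPM in control females. Neither passed the test in females (adjusted p = 0.206 and 0.214, edgeR). CG15930 was higher, at a log2 fold change of 0.64 ± 0.17 (adjusted p = 0.043, edgeR), while CG4198, which shares sequence with it, was lower. Sas10, whose counterpart in yeast acts in ribosomal RNA processing, stood at 0.03 ± 0.13 (adjusted p = 0.894, edgeR).

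CG9672 is flanked on one side by the serine protease genes CG9673 and CG4653, with log2 fold changes in females of 0.07 ± 0.16 and -0.34 ± 0.24 that did not pass the test (adjusted p = 0.792 and 0.359, edgeR). On its other side CG13008 stood at 0.03 ± 0.16 and CG34325 was higher at 0.53 ± 0.11 (adjusted p = 0.922 and 0.0131, edgeR). Around CG32564, CG8918, now named TTLL1A, had a log2 fold change of 0.41 ± 0.49 and CG12995 of 0.10 ± 0.32 (adjusted p = 0.603 and 0.861, edgeR). The genes directly beside CG32564 on one side and the other, CG5070 and CG32563, did not pass the filter on low counts. CG5070 averaged 0.288 CPM in MSL2 females and 0.0935 CPM in control females. The highest group mean of CG32563 was 0.163 CPM, in control males.

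**Figure D4:**
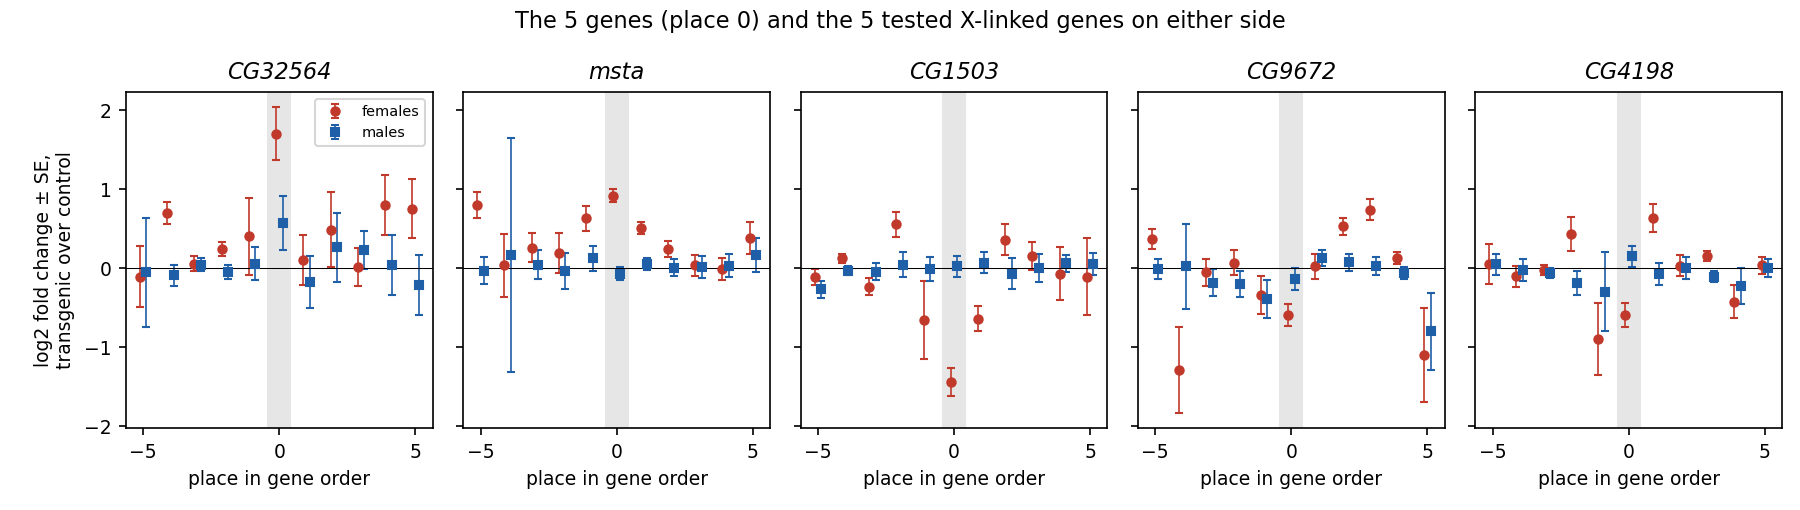
Fitted log2 fold change, with SE, of each of the 5 genes (place 0, shaded) and of the 5 nearest tested X-linked genes on either side, in MSL2 females over control females (circles) and MSL2 males over control males (squares). CG1503, at -1.44 in females, lies between CG15446 at -0.65, which was near the floor of detection in females, and unc at -0.64. CG32564 stands above all its plotted neighbours in females.

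Related genes were described from a list of X-linked serine proteases and their homologues and a list of SMYD genes, whose proteins combine a SET domain and a MYND finger. Among 15 X-linked serine protease genes, 3 others were called higher in MSL2 females by edgeR and none but CG9672 lower, where 22.0% of X-linked genes were called higher and 0.723% lower. In a fit of only the 6 female libraries spirit alone was called, of 13 genes tested, where 3.8% of X-linked genes were called higher and 0 lower. The 3 genes were spirit, a protease of the Toll immune cascade, at a log2 fold change of 1.11 ± 0.10, CG14780 at 0.73 ± 0.19 and CG32808 at 0.57 ± 0.16 (adjusted p = 0.00018, 0.0342 and 0.0428, edgeR). The median of the 14 genes other than CG9672 was 0.12, against 0.19 for X-linked genes. CG9672 differed in sign from the other members of its list that were called. It was not the only one of the list with a negative value, as CG9676, not called, stood at -1.28 ± 0.55 (adjusted p = 0.146, edgeR).

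In MSL2 males 0 of the 15 serine protease genes were called by edgeR and 0 by DESeq2, 0 had an unadjusted p under 0.05, and the median log2 fold change was -0.14, against 0.00 for all genes tested. The smallest p values belonged to CG6048 at -0.30 ± 0.16, CG4653 at -0.39 ± 0.24, spirit at 0.15 ± 0.10 and CG9673 at -0.20 ± 0.16 (adjusted p = 0.786, 0.904, 0.949 and 0.999, edgeR). Male values of CG9672, at -0.14, sat at this median.

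Of 15 SMYD genes, CG12119 was the only one besides msta called in MSL2 females by edgeR, at a log2 fold change of 0.75 ± 0.19 (adjusted p = 0.0327), where 6.62% of all genes were called higher and 3.67% lower. Both CG12119 and msta are X-linked, and of X-linked genes 22.0% were called higher. In a fit of only the 6 female libraries CG12119 was not called (adjusted p = 0.148, edgeR) and msta alone was, though a call of msta in females only describes its choice. In that fit 3.8% of X-linked genes were called higher and 0 lower. The median of the 14 genes other than msta was 0.16 in females. In MSL2 males 0 of the 15 were called by edgeR and 0 by DESeq2, 2 had an unadjusted p under 0.05, and the median was -0.14. These 2 were CG9642 at -0.50 ± 0.14 and CG8503 at -0.40 ± 0.14, followed by CG17085 at -0.66 ± 0.35 and Bzd at -0.14 ± 0.10 (adjusted p = 0.213, 0.355, 0.778 and 0.966, edgeR). The male value of msta, -0.07, was nearer 0 than that median.

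The genes most like each member were found by Pearson's r of log2 CPM over the 12 libraries, among 10969 genes with a mean log2 CPM of at least 1. These correlations share libraries, depth scaling and the difference between the sexes, and are a description. CG4198 resembled CG15523, CG16719 and CG1971, with r of 0.9996, 0.9996 and 0.9994, and 1053 genes had r above 0.99 with it. CG1503 resembled Ubp64E, a ubiquitin-specific protease gene, CG6565 and lgs, an adaptor of Wingless signalling, with r of 0.9964, 0.9961 and 0.9957. None of these 6 genes is X-linked. Their difference between MSL2 and control females was smaller than in the members they resemble, at log2 fold changes from -0.15 to -0.48. Pearson's r does not measure the size of a difference. Control males over control females stood at 0.41, 0.51 and 0.36 on the log2 scale for Ubp64E, CG6565 and lgs, against 3.37 for CG1503. For CG15523, CG16719 and CG1971 this was 2.90, 5.52 and 3.71, against 4.92 for CG4198.

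For msta the nearest genes were CG2278 with r of 0.99, CG15602 with 0.98 and CG6762 with 0.98, and all 3 are X-linked. Of the 50 genes most like msta, 45 are X-linked, where 15.8% of the genes compared are. CG32564 resembled Dip-C, a dipeptidase gene, with r of 0.97, CG14457 with 0.96 and zye with 0.95, which are autosomal, and 35 of its 50 most similar genes are X-linked. In females the log2 fold changes of Dip-C, CG14457 and zye were 0.32, 0.55 and 0.87, against 1.71 for CG32564. CG9672 resembled the autosomal genes CG9267 and CG14966, both with 0.97, and CG5044 with 0.96, and 2 of its 50 most similar genes are X-linked. Between the members, CG1503 and CG4198 had r of 0.99 and CG32564 and msta 0.84.

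Female libraries differed in the level of eggshell RNA. The summed level of 17 eggshell genes, which are expressed in the follicle cells of late egg chambers, was 270, 1252 and 1994 CPM in MSL2 females 1, 2 and 3 and 5073, 3995 and 3034 CPM in control females 1, 2 and 3. MSL2 female 1, which had the lowest eggshell sum, was also the MSL2 female library farthest from the control female mean for all 5 genes. For how many other X-linked genes this library was the farthest was not counted, and the 5 genes were chosen on these libraries. Over MSL2 females 1, 2 and 3, the order of rising eggshell sum, the log2 ratio to the control female mean was 1.09, 0.86 and 0.80 for msta. It was -0.70, -0.62 and -0.47 for CG9672 and -1.08, -0.51 and -0.28 for CG4198. These 3 genes thus came nearer the control females at each step, and the other genes did not. CG32564 and CG1503 were farther from the control females in MSL2 female 3 than in MSL2 female 2, although its eggshell sum was higher, and CG4198 was nearly equal in the control females. Every MSL2 female library had a lower eggshell sum than every control female library, as the sums show, so genotype and eggshell RNA cannot be told apart between the groups. In males the eggshell sum was 27.7 to 31.5 CPM with the transgene and 28.8 to 39.8 CPM without it. In these whole flies, fewer cells of a type and less RNA per cell cannot be told apart, and the part of egg production in the female values was not tested.

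Without MSL2 female 1 the log2 fold change in females was 1.31 ± 0.30 for CG32564, 0.83 ± 0.06 for msta, -1.21 ± 0.14 for CG1503, -0.54 ± 0.15 for CG9672 and -0.37 ± 0.09 for CG4198 (SE, n = 2 MSL2 and 3 control libraries). Each value was nearer 0 than with that library and kept its sign. Of the 5 genes CG4198 changed most in proportion. Without control female 3, whose CG32564 level was the highest among the control females, the value of CG32564 was 2.09 ± 0.34 (SE, n = 3 MSL2 and 2 control libraries).

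**Figure D5:**
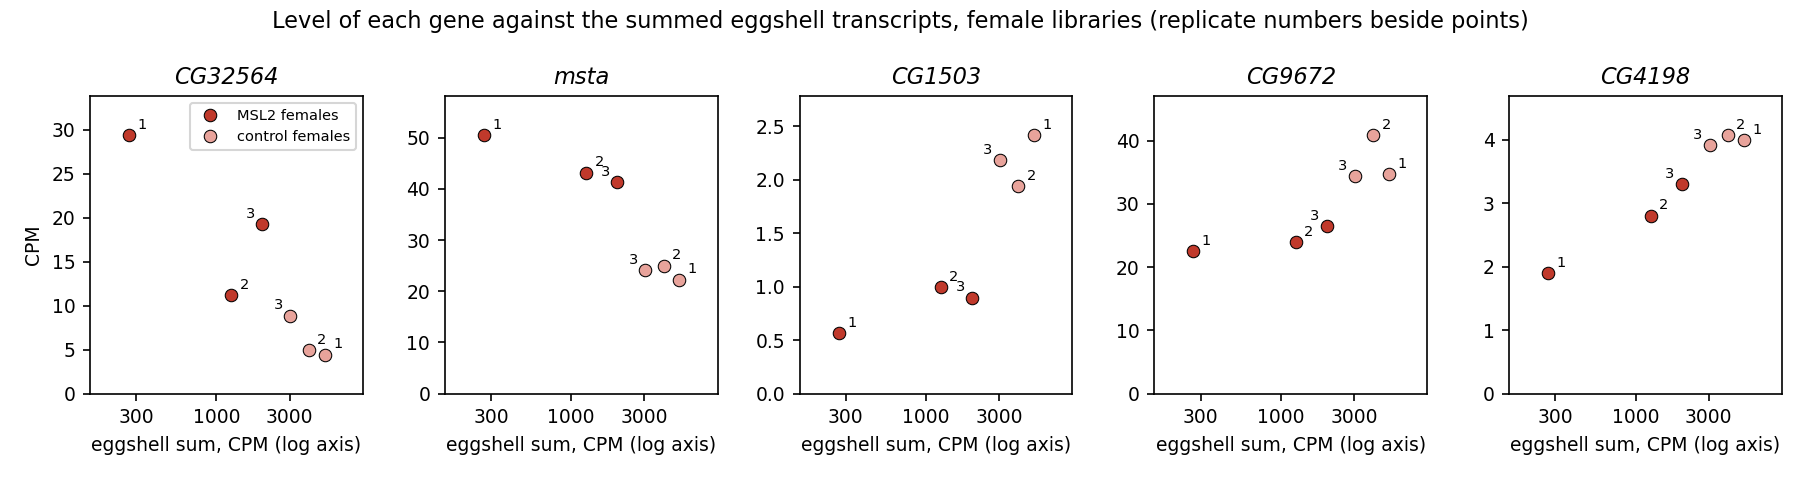
Level of each gene in CPM against the summed level of 17 eggshell genes in CPM (log axis) in the 6 female libraries, with replicate numbers beside the points. MSL2 female 1, at an eggshell sum of 270 CPM, holds the highest level of CG32564 and msta and the lowest of CG1503, CG9672 and CG4198.

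Markers of other tissues were compared in the same way. All 11 testis genes measured were above 0 counts in each group, and their sum was 13.0 to 16.3 CPM in MSL2 females and 11.7 to 17.6 CPM in control females, overlapping, while CG1503 and CG4198, which were high in males, did not overlap. In males the testis sum was 2472 to 2692 CPM with the transgene and 2078 to 2376 CPM without it, which did not overlap and moved in the direction of CG4198. The 8 accessory gland genes summed to 2586 to 3985 CPM in MSL2 males and 2516 to 3673 CPM in control males. Their part in the male values of CG4198 was not tested.

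The 3 yolk protein genes summed to 8704 to 13243 CPM in MSL2 females and 14245 to 15784 CPM in control females. The 4 fat body genes summed to 1430 to 1607 CPM in MSL2 females and 1126 to 1259 CPM in control females, and the 7 photoreceptor genes to 4040 to 4619 CPM in MSL2 females and 3100 to 3285 CPM in control females. Both sums were higher in MSL2 females without overlap, and the yolk sum was lower without overlap. The 12 gut genes, of which 1 was at 0 counts in every group, summed to 3000 to 5393 CPM in MSL2 females and 3469 to 5334 CPM in control females. The part of these tissues in the values of the 5 genes was not tested.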

How the data were processed

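The 5 genes, the gene lists and the comparisons were chosen with earlier results of these data known. Raw read counts for each RefSeq transcript were deposited in separate tables of autosomal and X-linked genes. A further column per library, marked as normalized in the file headers, was deposited as a fraction of that table's total count (checked to within 5.00e-10) and not used further. Per the labels' protocols, TRIZOL and an Illumina TruSeq kit were used. The submitters' processing notes list TopHat, HTSeq and dm3, without versions. For counting mode, strand and annotation release the sources used here give nothing. Labels call the samples of a group biological replicates, and column headers gave the sample of each column. A row without a gene in each table, which equals the column sum, was left out.

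For each gene only its transcript with the largest total count was used. Gene order, strands and overlaps came from RefSeq Release 6 plus ISO1 MT and Ensembl BDGP6, which are later than dm3, and coordinates were therefore left out. The test was edgeR's quasi-likelihood F test (version 4.0.16, in R 4.3.3) of group means, fitted over all 12 libraries with TMM factors after filterByExpr at a minimum count of 10. P-values were adjusted over 13060 genes by Benjamini and Hochberg, at a threshold of 0.05. The steps were tested on simulated data. Log2 fold changes are those of the fit, their SE is the absolute value divided by the square root of F, and 95% intervals use the t distribution with the fitted degrees of freedom. Alternatives were DESeq2 1.42.0, its size factors, TMM factors from autosomal genes, no filter, sums over transcripts, a fit of only the libraries compared, a replicate block, and leaving out each library. CG18213 was left out of the SMYD list because the annotation does not name it so.

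Named were every member, the 2 nearest annotated genes on either side where these were measured, the genes just above and below each member in females, the 3 genes most like each, up to 4 genes of the serine protease and SMYD lists with the smallest p in males, and msl-2, roX1 and w. Genes of these lists called in females, the genes overlapping a member and the X-linked genes called in males were named after their values were seen. Replicate numbers were not taken to pair samples.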

Additional observations from a re-analysis of the deposited data

Results flagged for a closer look

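For msta the log2 fold change of transgenic over control flies was 0.92 in females and -0.07 in males, a difference of 0.98, and for CG4198 it was -0.59 in females and 0.15 in males, a difference of -0.74. Both drew attention because every MSL2 female library lay on one side of the control female mean and every MSL2 male library on the opposite side of the control male mean. The female side of this follows from the choice of the genes, and how many X-linked genes show the same was not counted. The difference between the sexes was not tested, because the genes were chosen on the female values.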

How the results depend on the processing

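Over 19 alternatives, the 5 female values kept their sign, as did the male values of CG32564, msta and CG4198, and none of the 5 genes was called in males. The lowest adjusted p in males was 0.132, for CG32564, in the fit of only the 6 male libraries, where 2 of the 5, CG32564 and CG4198, had an unadjusted p under 0.05. Male values of CG1503 and CG9672 changed sign when 1 library was left out, with ranges of -0.023 to 0.088 for CG1503 (-0.023 without control male 2, -0.0059 without MSL2 male 3) and of -0.21 to 0.011 for CG9672 (0.011 without MSL2 male 2), the values of opposite sign being smaller than their SE. The count of 106 genes called in males became 292 with DESeq2, 287 with only the 6 male libraries and 51 with a replicate block, and leaving out 1 library gave 41 (without control male 3) to 229 (without MSL2 female 1), and 42, 57 and 45 without MSL2 males 1, 2 and 3 and 53 and 51 without control males 1 and 2. The causes were not tested. Same-numbered samples deviated together in some pairs only (correlations of -0.43, 0.20 and -0.56 in females and -0.28, 0.60 and 0.18 in males). With 3 libraries per group these values cannot show whether equal numbers mark samples handled together. With the replicate block the male log2 fold change of CG32564 was 0.58. In females, leaving out 1 library gave 5 to 10 neighbours called higher against 8, 1 to 4 serine protease genes against 3, and 1 to 2 SMYD genes against 2. Of the 5 members, 1 to 2 were then called higher against 2 and 1 to 3 lower against 3. X-linked genes called higher were 12.1% (without control female 1) to 26% (without MSL2 female 3) of those tested, against 22%. Those called lower numbered 2 (without control female 1 or 2) to 46 (without MSL2 female 3) against 15, or 0.096% to 2.21% against 0.723%. In females CG1503 rests on 104 counts over 3 MSL2 libraries, which limits its precision.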

Other observations

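Of the 15 X-linked genes called lower in MSL2 females, CG1503 and CG4198 were among those with higher levels in control males than in control females. Control males exceeded control females by more than 1 on the log2 scale in 3 of the 15, which were CG1503 at 3.37, CG4198 at 4.92 and unc, the gene beside CG1503, at 1.44. In 8 of the 15 control males were lower than control females by more than 1, among them the eggshell genes Cp7Fb at -3.88 and Fcp3C at -1.34, and 4 of the 15, CG9672 at -0.66 among them, lay between. Over all 2075 X-linked genes tested, 368 had control males above control females by more than 1, a share near that of 3 in 15. With 15 genes, and with control females used in both comparisons, these counts cannot show whether the genes called lower differ in this from others. For the 8 genes lower in control males the share over all X-linked genes was not counted. In a fit of only the 6 female libraries 0 X-linked genes were called lower by edgeR, against 15 with all 12 libraries, and DESeq2 called 21. These genes were picked out after their values were seen.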
